A study of Mus musculus with 8 samples.

Results

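The genes described here are the 8 members of the VEGF family listed for this series: the ligands Vegfa, Vegfc and Pgf, the receptor tyrosine kinases Flt1 (VEGFR1), Kdr (VEGFR2) and Flt4 (VEGFR3), and the co-receptors Nrp1 and Nrp2. They were taken by symbol from the expression tables, 8 of 20408 genes found in any library, and were measured in cells with at least 1 Pecam1 UMI (Pecam1 encodes CD31, the antigen of the endothelial sort). These were 7159 of 8204 deposited cells (87.3%).

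Single cells were sequenced from breast tumours of adult mice as 8 libraries, with 2 libraries for each pairing of tumour model (spontaneous or implanted) and injection (PBS or cGAMP). Spontaneous tumours arose in MMTV-PyMT mice, in which a mammary tumour virus promoter drives the polyoma middle T oncogene in the mammary epithelium. Implanted tumours grew from cultured tumour cells of such mice, placed with Matrigel in the mammary fat pad of female mice. Tumours received PBS, the vehicle control, or cGAMP, a cyclic dinucleotide that activates STING, by intratumoural injection, and live CD45-/CD31+ endothelial cells (ECs) were sorted 3 h later. Each group came from 2 mice. Every library is labelled c57bl/6, whereas the methods name FVB animals for both models, so the strain is not settled.

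VEGF ligands are secreted dimers that bind receptor tyrosine kinases on endothelium. VEGF-A signals mainly through VEGFR2 in blood vessels, VEGF-C mainly through VEGFR3 in lymphatic vessels, and PlGF (encoded by Pgf) binds VEGFR1, which takes up VEGF-A with high affinity and signals weakly. Neuropilins have no kinase, bind certain VEGF forms together with these receptors, and also bind class 3 semaphorins, whose signals pass through plexins. Here 1 UMI counts 1 captured transcript near its 3′ end, and levels are means over cells of the UMIs of a gene per 1000000 UMIs of the cell (CPM). Soluble and membrane forms of Flt1 or Nrp1, and the Vegfa splice forms, were joined in 1 count per gene, and levels of different genes were not compared.

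The libraries held 7863535 to 16506086 UMIs in all cells and 601 to 1529 Pecam1-positive cells. Replicate 1 of implanted cGAMP stood apart, with a median of 3049 UMIs per Pecam1-positive cell against 9523 to 14707.5 in the other libraries, and with Pecam1 UMIs in 75.5% of its cells against 88.7% to 92.8%. The summed level of 6 endothelial markers was 3690 to 4326 CPM. Summed immune markers (8 genes) reached 182 CPM in that library against 11.2 to 42.8 in the others, and epithelial tumour markers (7 genes) 726 against 127 to 366 CPM. Mural markers (7 genes) were at 159 to 804 CPM in spontaneous and 109 to 240 CPM in implanted libraries, and fibroblast markers (5 genes) at 12.1 to 88.5 CPM. None of these markers was at 0 in any library. At most 3 cell barcodes were shared between 2 libraries, in 5 of 28 pairs of libraries.

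The first question was how the family responded to cGAMP in each model. Pgf rose and Nrp1, Nrp2 and Vegfc fell in both models. Vegfa rose in implanted tumour ECs, but the difference between its responses in the 2 models was not called (adjusted p = 0.265, limma). Of the 8 members, 4 passed the test in spontaneous tumour ECs (1 higher, 3 lower) and 7 in implanted tumour ECs (3 higher, 4 lower). Over all 10424 genes tested, 12.7% were called in spontaneous (5.09% higher, 7.59% lower) and 25.0% in implanted tumour ECs (8.6% higher, 16.4% lower). The median log2 fold change of the members was -0.17 and -0.05, and that of all genes -0.10 in both. A call is an adjusted p under 0.05 in limma, adjusted by Benjamini-Hochberg over all tested genes, and all adjusted p values below are of this kind. The libraries of the 2 treatments did not overlap for 6 members in spontaneous and 8 in implanted tumour ECs, against 60.3% and 63.1% of all genes. With median-of-ratios scaling the split of all calls moved from 531 higher and 791 lower to 666 and 337 in spontaneous, and from 896 and 1713 to 1178 and 1110 in implanted tumour ECs, and 3 and 5 members were called. The member calls rest on few libraries: without spontaneous PBS replicate 2 or spontaneous cGAMP replicate 1 the spontaneous count was 0, without spontaneous cGAMP replicate 2 it was 2, and the implanted count was 4 without implanted PBS replicate 1 and 3 without implanted PBS replicate 2. A level in a library of mixed vessel cells cannot tell more cells of a type from more RNA per cell. In 1 setting, described with Vegfc below, every library was given the same mix of vessel classes. In spontaneous and implanted tumour ECs Pgf then changed by 1.55 and 1.69 (adjusted p = 0.00699 and 0.0024). Nrp1 changed by -0.63 and -0.88 (adjusted p = 0.00198 and 0.000138), and Vegfa by 0.50 and 1.89 (adjusted p = 0.267 and 0.000915). Vegfc in spontaneous and Flt4 in implanted tumour ECs lost their calls.

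**Figure D1:**
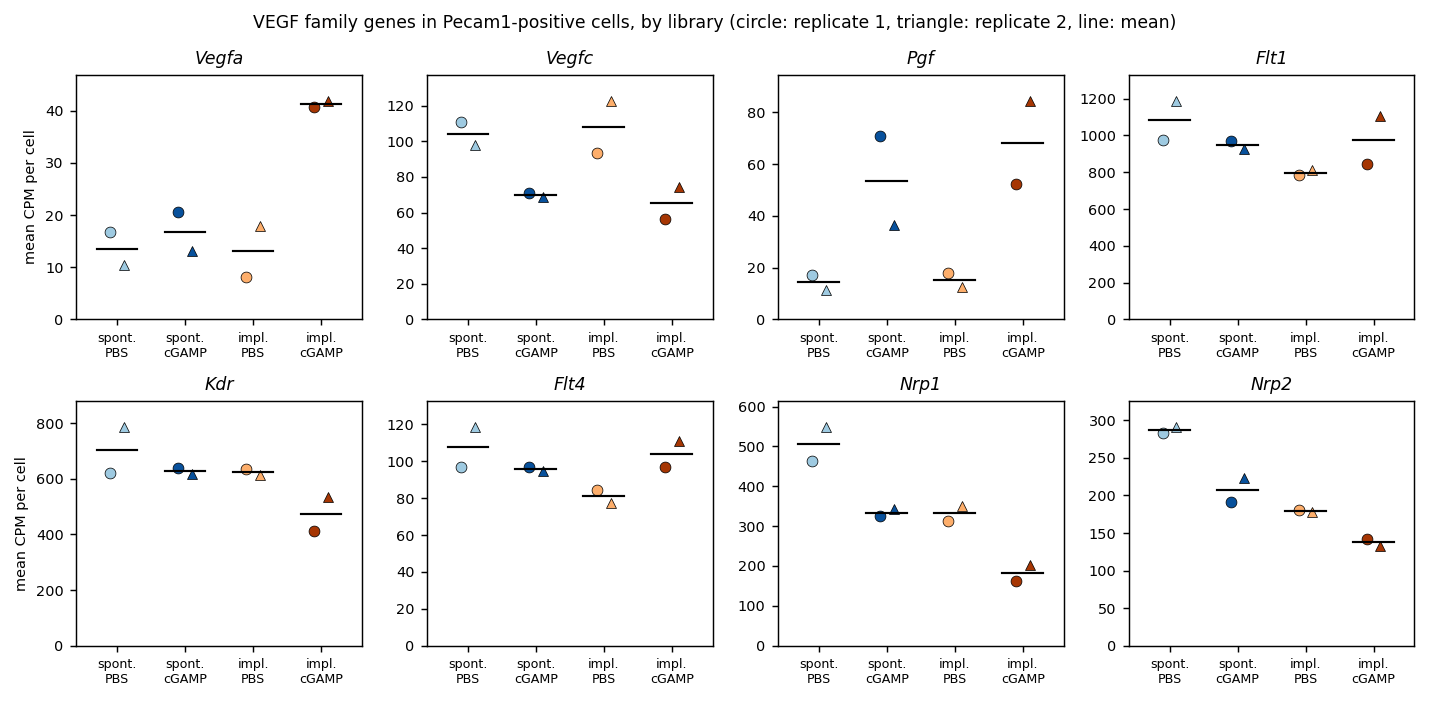
Level of each gene in the 8 libraries, as mean CPM over Pecam1-positive cells (y axis from 0) for the 4 groups on the x axis; each point is a library and each line a group mean. For Pgf all cGAMP libraries lie above all PBS libraries (36.3 to 84.4 against 11.4 to 17.9 CPM), and for Vegfa both implanted cGAMP libraries (40.8 and 41.9 CPM) lie above the other 6.

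Among the ligands, Pgf was higher after cGAMP in both models. It stood at 17.2 and 11.4 CPM in spontaneous PBS, 70.8 and 36.3 in spontaneous cGAMP, 17.9 and 12.6 in implanted PBS, and 52.2 and 84.4 in implanted cGAMP libraries. Every cGAMP library was above every PBS library, and the spread within each cGAMP group was wide. Pgf rose by 1.79 ± 0.33 (log2 fold change ± SE) in spontaneous (adjusted p = 0.00828) and by 2.07 ± 0.33 in implanted tumour ECs (adjusted p = 0.00211). The spontaneous call was lost without spontaneous PBS replicate 2 (1.51, adjusted p = 0.0631) and without spontaneous cGAMP replicate 1 (1.31, adjusted p = 0.0763). The responses differed by 0.28 ± 0.47 (adjusted p = 0.841). Without cells that held at least 2 markers of a mural, epithelial, immune or fibroblast list the spontaneous change was 1.72 with an adjusted p of 0.0511. This setting drops 64.0% and 53.7% of Pecam1-positive cells in spontaneous cGAMP, 41.0% and 39.6% in spontaneous PBS, 43.0% and 36.9% in implanted cGAMP, and 35% and 26.8% in implanted PBS libraries. Summed mural markers were at 804 and 664 CPM in spontaneous cGAMP against 159 and 518 CPM in spontaneous PBS. In cells without a Pecam1 UMI, Pgf was at 35.6 and 118 CPM in spontaneous cGAMP and 6.62 and 46.8 CPM in spontaneous PBS libraries. The part of such cells in the spontaneous change of Pgf was otherwise not tested.

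Vegfa, the main angiogenic ligand, was at 16.7 and 10.4 CPM in spontaneous PBS, 20.6 and 13.0 in spontaneous cGAMP, 8.17 and 18.0 in implanted PBS, and 40.8 and 41.9 in implanted cGAMP libraries. The treatments overlapped in the spontaneous model and not in the implanted one. The log2 fold change was 0.29 ± 0.34 in spontaneous (adjusted p = 0.608), and Vegfa rose by 1.68 ± 0.34 in implanted tumour ECs (adjusted p = 0.0062). The difference between the responses was 1.39 ± 0.48 and was not called (unadjusted p = 0.0167, adjusted p = 0.265 from limma). The implanted change was called without replicate 1 of implanted cGAMP (1.70, adjusted p = 0.0178) and without cells bearing markers of other types (1.36, adjusted p = 0.0296). Summed immune markers were at 182 and 42.8 CPM in implanted cGAMP against 16.4 and 11.2 CPM in implanted PBS libraries. The levels rest on 74 to 419 Vegfa UMIs per library.

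Vegfc, the lymphangiogenic ligand, moved in the opposite direction to Pgf. Its level was 111 and 97.7 CPM in spontaneous PBS, 70.7 and 69.0 in spontaneous cGAMP, 93.7 and 123 in implanted PBS, and 56.4 and 74.5 in implanted cGAMP libraries. All 4 cGAMP libraries lay below all 4 PBS libraries. Vegfc fell by 0.57 on the log2 scale in spontaneous (SE 0.15, adjusted p = 0.0421) and by 0.72 in implanted tumour ECs (SE 0.15, adjusted p = 0.00875). In 1 setting every library was given the same mix of the 6 vessel classes (defined below) with at least 10 cells in each library. This mix left out proliferating cells and held cells in no class as 1 class, whose own make-up was not fixed. The spontaneous call did not hold with this mix (-0.30, adjusted p = 0.0731). Nor did it hold when cells with markers of other types were left out (adjusted p = 0.0759), or with median-of-ratios scaling (adjusted p = 0.0982). It was also lost without any 1 of the 4 spontaneous libraries (adjusted p = 0.0895 to 0.200). In implanted tumour ECs the fixed mix gave -0.35 (adjusted p = 0.0274), and the call was lost without implanted PBS replicate 2 (-0.52, adjusted p = 0.0786).

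The upstream windows of Vegfa and Vegfc are shown because these ligands moved in opposite directions in implanted tumour ECs, and the Flt1 window because the direction of that receptor in tip-like cells differed between the models. They are the 250 bases before the RefSeq start on GRCm38.p6, written in the direction of the gene. Capitals mark matches on either strand to the interferon-stimulated response motif (GAAA, any 2 bases, GAAA) and to the GC box GGGCGG.
Vegfa, minus strand, chr17:46032378-46032627: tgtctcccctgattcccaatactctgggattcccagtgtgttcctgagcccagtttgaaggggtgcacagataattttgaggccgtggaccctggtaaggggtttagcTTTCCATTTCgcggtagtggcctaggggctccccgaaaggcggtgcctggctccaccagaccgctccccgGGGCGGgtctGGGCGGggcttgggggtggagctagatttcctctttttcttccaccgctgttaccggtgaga
Vegfc, plus strand, chr8:54077282-54077531: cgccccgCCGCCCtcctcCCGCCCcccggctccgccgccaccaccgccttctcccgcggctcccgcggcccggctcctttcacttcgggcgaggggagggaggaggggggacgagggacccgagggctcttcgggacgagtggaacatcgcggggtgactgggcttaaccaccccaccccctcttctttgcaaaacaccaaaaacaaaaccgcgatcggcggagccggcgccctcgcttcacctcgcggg
Flt1, minus strand, chr5:147726012-147726261: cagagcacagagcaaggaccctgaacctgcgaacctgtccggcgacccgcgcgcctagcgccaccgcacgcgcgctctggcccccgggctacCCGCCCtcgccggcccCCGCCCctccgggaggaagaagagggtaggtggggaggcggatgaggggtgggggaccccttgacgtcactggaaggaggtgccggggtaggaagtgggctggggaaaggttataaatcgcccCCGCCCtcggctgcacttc

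Searched on both strands, the interferon-stimulated response motif was found once in the Vegfa window, with its first base 142 bases before the start, and in 2.98% of 32851 promoters of this length. It was in none of the first windows of the other 7 members. The gamma-activated motif TTCNNNGAA (7.02% of promoters), the NF-kB motif (GGG, any 2 bases, TTTCC, 1.41%) and the hypoxia response core ACGTG (16.6%) had no match in the first window of any of the 8 genes, and the GC box (32.7%) was in all 8. A second RefSeq start of Vegfa had 1 ACGTG match. The motifs were chosen with the expression results known, and a match of letters describes a sequence and not a bound site.

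In GENCODE vM21 (GRCm38, the mm10 assembly) Vegfa lies on chromosome 17 at 46016993 to 46032369 (minus strand) with 8 coding transcripts that end at 4 places within 1865 bases. Flt1 lies on chromosome 5 at 147561604 to 147726011 (minus strand), and its 2 coding transcripts end 73555 bases apart. Kdr is on the same chromosome at 75932827 to 75978458. Vegfc (54077606 to 54187096) and Nrp1 (128358604 to 128503363) share chromosome 8, Pgf is on chromosome 12 (85166635 to 85177790), Flt4 on chromosome 11 (49609263 to 49652739) and Nrp2 on chromosome 1 (62703285 to 62818695). Nrp2 is overlapped by the antisense gene Gm29083 and by Gm37121 on its own strand, and Nrp1 by Mir1903 on its own strand. Reads in stretches shared on the same strand are of uncertain origin.

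Among the receptors, Kdr, the principal signalling receptor for VEGF-A, was at 620.0 and 786 CPM in spontaneous PBS, 640.1 and 618 in spontaneous cGAMP, 635 and 615 in implanted PBS, and 411 and 534 in implanted cGAMP libraries. The treatments overlapped in spontaneous tumour ECs (-0.15 ± 0.13, adjusted p = 0.497) and did not overlap in implanted tumour ECs, where Kdr fell by 0.42 on the log2 scale (SE 0.13, adjusted p = 0.0471). Replicate 1 of implanted cGAMP was the lowest library. Without it the implanted change was -0.23 (adjusted p = 0.221), and the call was also lost without either implanted PBS library (adjusted p = 0.170 and 0.144) or either spontaneous cGAMP library (adjusted p = 0.0776 and 0.0780). The implanted change was -0.32 with median-of-ratios scaling (adjusted p = 0.136). It was also not called with at least 2 Pecam1 UMIs per cell, summed UMIs, no filter on low values or eBayes without trend (adjusted p = 0.0583 to 0.131). It was called with the same mix of vessel classes in every library (-0.50, adjusted p = 0.0085). The call also held without cells bearing markers of other types (-0.41, adjusted p = 0.0128).

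Flt1, the VEGF-A and PlGF receptor, was at 975 and 1189 CPM in spontaneous PBS, 969.6 and 924 in spontaneous cGAMP, 784 and 812 in implanted PBS, and 845 and 1107 in implanted cGAMP libraries. Both cGAMP libraries lay below both PBS libraries in spontaneous and above them in implanted tumour ECs, by small margins. Neither change was called (-0.19 ± 0.13, adjusted p = 0.372, and 0.28 ± 0.13, adjusted p = 0.147), nor was their difference (0.46 ± 0.18, unadjusted p = 0.0298, adjusted p = 0.316, limma). Without replicate 1 of implanted cGAMP the implanted change was 0.47 and was called (adjusted p = 0.0147).

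Flt4, the VEGF-C receptor, showed the same arrangement. Its level was 97.1 and 119 CPM in spontaneous PBS, 96.8 and 94.5 in spontaneous cGAMP, 84.7 and 77.4 in implanted PBS, and 96.7 and 111 in implanted cGAMP libraries. The spontaneous change was -0.16 ± 0.11 (adjusted p = 0.372) and Flt4 rose by 0.35 ± 0.11 in implanted tumour ECs (adjusted p = 0.0489). This call was lost without any 1 of 5 libraries, namely both implanted PBS, both spontaneous cGAMP and implanted cGAMP replicate 2 (adjusted p = 0.0777 to 0.241). With the same mix of vessel classes in every library the implanted change turned to -0.10 (adjusted p = 0.468). Lymphatic-like cells, in which Flt4 was highest, made up 12.3% and 9.77% of Pecam1-positive cells in implanted cGAMP against 5.6% and 3.83% in implanted PBS libraries. Prox1, a marker of that class, did not move with this share. It was at 39.2 and 55.9 CPM in implanted cGAMP and 54.7 and 45.5 CPM in implanted PBS libraries, which overlapped. The part of lymphatic-like cells in the change of Flt4 was otherwise not tested.

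The co-receptors fell in both models. Nrp1 was at 463 and 549 CPM in spontaneous PBS, 326 and 342 in spontaneous cGAMP, 313 and 351 in implanted PBS, and 163 and 201 in implanted cGAMP libraries. Within each model both cGAMP libraries were below both PBS libraries, and the spontaneous cGAMP and implanted PBS libraries lay in the same range. Nrp1 fell by 0.59 on the log2 scale in spontaneous (SE 0.12, adjusted p = 0.0117) and by 0.87 in implanted tumour ECs (SE 0.12, adjusted p = 0.000854). Without replicate 1 of implanted cGAMP the latter was -0.72 (adjusted p = 0.00244), and it was called without each of the other libraries. The spontaneous call was lost without spontaneous PBS replicate 2 (-0.47, adjusted p = 0.0843), spontaneous cGAMP replicate 1 (-0.56, adjusted p = 0.0963) or spontaneous cGAMP replicate 2 (-0.63, adjusted p = 0.0625).

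Nrp2, which pairs with VEGFR3 in lymphatic endothelium, was at 283 and 291 CPM in spontaneous PBS, 191 and 223 in spontaneous cGAMP, 181 and 178 in implanted PBS, and 142 and 133 in implanted cGAMP libraries. The 4 groups stood in this order without overlap. Nrp2 fell by 0.47 on the log2 scale in spontaneous (SE 0.09, adjusted p = 0.00785) and by 0.38 in implanted tumour ECs (SE 0.09, adjusted p = 0.0121). Both calls held with the same mix of vessel classes in every library (-0.47, adjusted p = 0.00472, and -0.51, adjusted p = 0.00173), and the implanted call was lost with median-of-ratios scaling (adjusted p = 0.0519). Without 1 library, the spontaneous call was lost for spontaneous PBS replicate 2 (-0.45, adjusted p = 0.0527) and spontaneous cGAMP replicate 1 (-0.36, adjusted p = 0.0756), and the implanted call for either implanted PBS library (-0.36 and -0.39, adjusted p = 0.0643 and 0.0605).

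**Figure D2:**
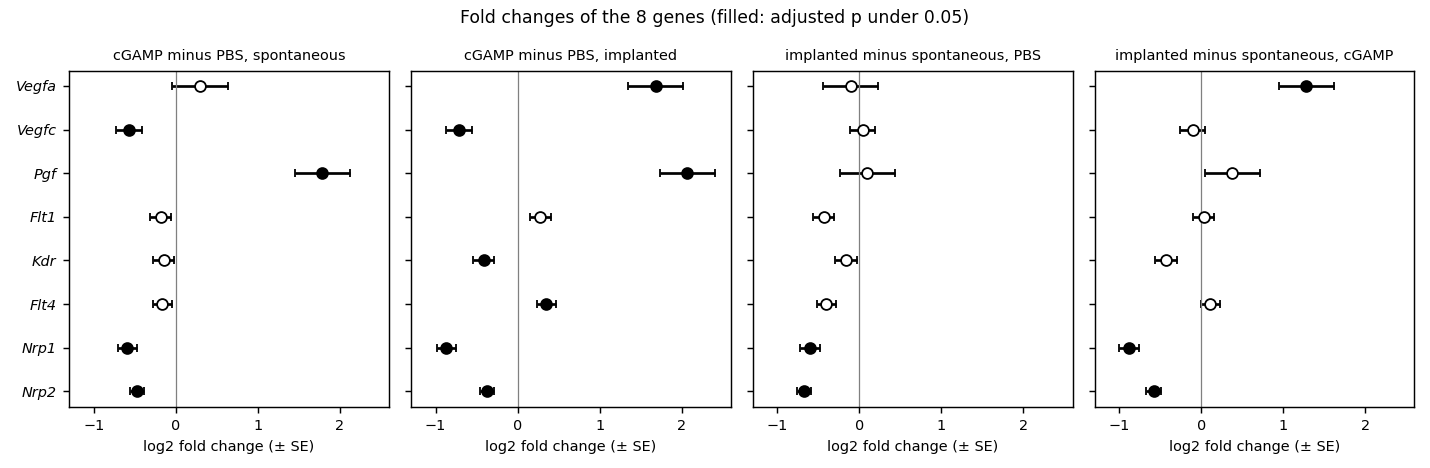
Log2 fold change of each gene (x axis, point with SE) in the 4 comparisons between groups; filled points had an adjusted p under 0.05. Pgf is called higher in both cGAMP comparisons (1.79 and 2.07), and Nrp1 and Nrp2 lie left of 0 in all 4.

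No member was called in the test of the difference between the responses (0 of 8), in which 0.662% of all genes were called (0.201% higher, 0.46% lower). At an unadjusted p under 0.05 there were 3 members (Vegfa, Flt1 and Flt4) and 1400 of 10424 genes in limma.

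The models were then compared under each injection. After PBS, Nrp1 and Nrp2 were lower in implanted than in spontaneous tumour ECs and the other 6 members were not called, so that 2 of 8 passed (0 higher, 2 lower) against 7.83% of all genes (3.39% higher, 4.44% lower). The log2 difference was -0.60 ± 0.12 for Nrp1 (adjusted p = 0.0161) and -0.68 ± 0.09 for Nrp2 (adjusted p = 0.00199). The median of the members was -0.28, and that of all genes -0.06. The Nrp1 call was lost without spontaneous PBS replicate 2 (-0.48, adjusted p = 0.138) and without implanted PBS replicate 1 (-0.52, adjusted p = 0.123). Flt1 (-0.43 ± 0.13, adjusted p = 0.0735) and Flt4 (-0.40 ± 0.11, adjusted p = 0.0616) lay under their spontaneous levels in both libraries. They were called with the same mix of vessel classes in every library (adjusted p = 0.0373 and 0.0206) and without implanted cGAMP replicate 1 (adjusted p = 0.0165 and 0.0371) or 2 (adjusted p = 0.0170 and 0.0377), and Flt4 also without spontaneous PBS replicate 1 (-0.54, adjusted p = 0.0425). Kdr, Vegfa, Vegfc and Pgf had log2 differences of -0.16 to 0.10 with adjusted p values of 0.509 to 0.899, and their libraries overlapped. Libraries did not overlap for 4 members, against 58.0% of all genes. With median-of-ratios scaling the split of all calls moved from 353 higher and 463 lower to 509 and 241.

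After cGAMP, 3 of 8 members were called between the models (1 higher, 2 lower) against 13.8% of all genes (5.23% higher, 8.53% lower). Nrp1 was lower in implanted tumour ECs (-0.88 ± 0.12 on the log2 scale, adjusted p = 0.00284), and so was Nrp2 (-0.58 ± 0.09, adjusted p = 0.00466). Vegfa was higher by 1.28 ± 0.34 (adjusted p = 0.0361), a call that was lost without any 1 of the 4 cGAMP libraries (0.97 to 1.59, adjusted p = 0.0651 to 0.241) and without cells bearing markers of other types (1.08, adjusted p = 0.102). The Nrp2 call was lost without spontaneous cGAMP replicate 2 (-0.47, adjusted p = 0.0577). Kdr was at -0.42 ± 0.13 (adjusted p = 0.0631) and was called without either spontaneous PBS library (adjusted p = 0.0491 and 0.0488) or implanted cGAMP replicate 2 (-0.61, adjusted p = 0.0131). The libraries of the models did not overlap for 4 members, against 57.1% of all genes, and the median was -0.04 for the members and -0.07 for all genes. Flt4 was at 0.11 ± 0.11 (adjusted p = 0.547), and with a fixed mix of vessel classes it turned to -0.38 (adjusted p = 0.0222). With median-of-ratios scaling the split of all calls moved from 545 higher and 889 lower to 767 and 540. Each of these comparisons shares its libraries with the others.

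Vessel types were then separated with marker lists that hold none of the 8 genes. A cell was assigned to the list with the highest mean standardised expression of 8 markers if that score was at least 0.5 and at least 2 markers were found. This gave 1171 arterial-like, 1102 venous-like, 1008 tip-like, 518 AQP7 capillary-like, 303 proliferating and 453 lymphatic-like cells, and 2604 cells were in no class. Tip cells lead new sprouts, and AQP7 marks a type of capillary cell. The classes are ranges of a score: 18.5% of tip-like and 20.3% of AQP7 capillary-like cells scored within 0.1 of the cut, against 0.99% to 9.17% in the other classes. Levels by class are a description, without a test, over libraries with at least 10 cells of the class (8 for each class and 5 for proliferating cells).

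**Figure D3:**
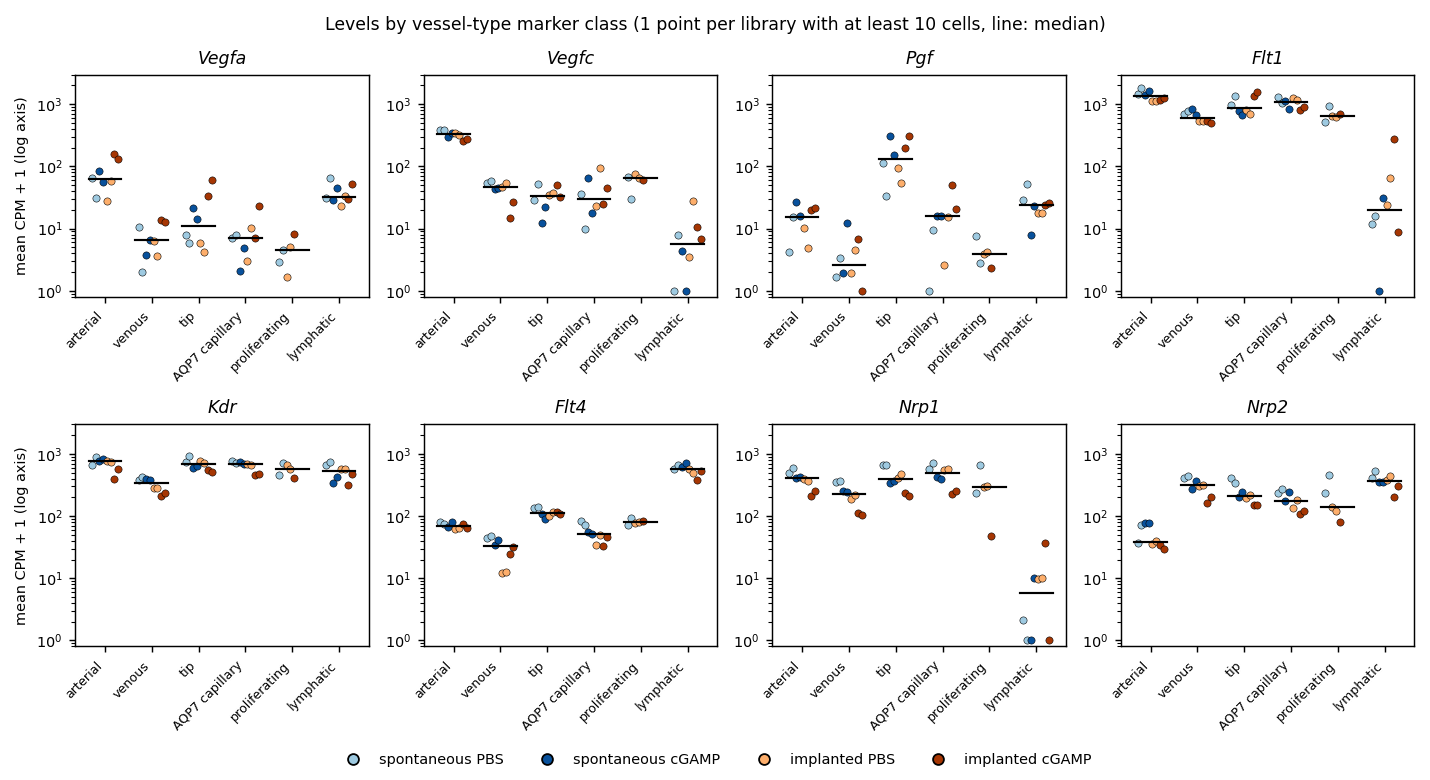
Level of each gene by vessel class (x axis), as mean CPM + 1 on a log axis; each point is a library, coloured by group, and each line the median. Flt1 and Nrp1 drop in lymphatic-like cells (medians 18.6 and 4.84 CPM), where Flt4 peaks (573 CPM), and Pgf peaks in tip-like cells (132 CPM).

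Among the ligands, Pgf had its highest median in tip-like cells and Vegfa and Vegfc in arterial-like cells. Pgf was at 31.9, 132 and 303 CPM in tip-like cells (lowest, median and highest library) and at medians of 1.64 to 22.7 CPM in the other classes. Tip-like cells were above the pooled mean of the other classed cells in 8 of 8 libraries, and above lymphatic-like cells in 7 of 8, the exception being spontaneous PBS replicate 2 (31.9 against 51.3 CPM). Vegfc was at 259.7, 331 and 383 CPM in arterial-like cells against medians of 4.54 to 63.9 CPM elsewhere, again in 8 of 8 libraries. Vegfa was also highest in arterial-like cells (26.7, 61.0 and 157 CPM), followed by lymphatic-like cells (22.5, 31.3 and 64.5 CPM), and had medians of 3.45 to 10.1 CPM in the rest. The arterial-like level of Vegfa was above the lymphatic-like one in 7 of 8 libraries, and the order among venous-like, AQP7 capillary-like and proliferating cells was not stable between libraries.

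Flt1 was lowest and Flt4 highest in lymphatic-like cells in 8 of 8 libraries. Flt1 had medians of 1336 CPM in arterial-like, 1073 in AQP7 capillary-like, 878 in tip-like, 635 in proliferating, 609.7 in venous-like and 18.6 CPM in lymphatic-like cells. Of the neighbours in this order, tip-like exceeded proliferating cells in 5 of 5 libraries and venous-like exceeded lymphatic-like cells in 8 of 8, and the other pairs changed order in at least 1 library. Arterial-like cells had the highest Flt1 level in the spontaneous libraries. In implanted PBS AQP7 capillary-like cells were above them (1238 and 1172 against 1128 and 1106 CPM), and in implanted cGAMP tip-like cells were (1352 and 1573 against 1152 and 1252 CPM). Flt4 ran the other way, at 373, 573 and 719 CPM in lymphatic-like cells against medians of 112 CPM in tip-like and 31.9 CPM in venous-like cells, its lowest class. Kdr was found in all classes, with medians of 760.5 CPM in arterial-like, 687 in AQP7 capillary-like, 678 in tip-like, 566 in proliferating, 524 in lymphatic-like and 333 CPM in venous-like cells. Tip-like exceeded proliferating cells in 5 of 5 libraries, and the other neighbours in this order changed places in at least 1 library.

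The co-receptors also split by class. Nrp1 was at medians of 485 CPM in AQP7 capillary-like, 403 in arterial-like, 389 in tip-like, 288 in proliferating and 228 in venous-like cells, but at 4.84 CPM in lymphatic-like cells. Nrp2 was highest in lymphatic-like (367 CPM) and venous-like cells (314 CPM), which kept this order in 6 of 8 libraries, and lowest in arterial-like cells (28.6, 37.5 and 77.2 CPM). Replicate 1 of implanted cGAMP departed from this in its 188 lymphatic-like cells, with Flt1 at 270.2 CPM against at most 63.0 in the other libraries and Nrp1 at 35.3 against at most 9.21 CPM. Those cells had a median of 2499 UMIs, against 8972.5 to 18916 in the other libraries, and the part of depth in this difference was not tested.

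**Figure D4:**
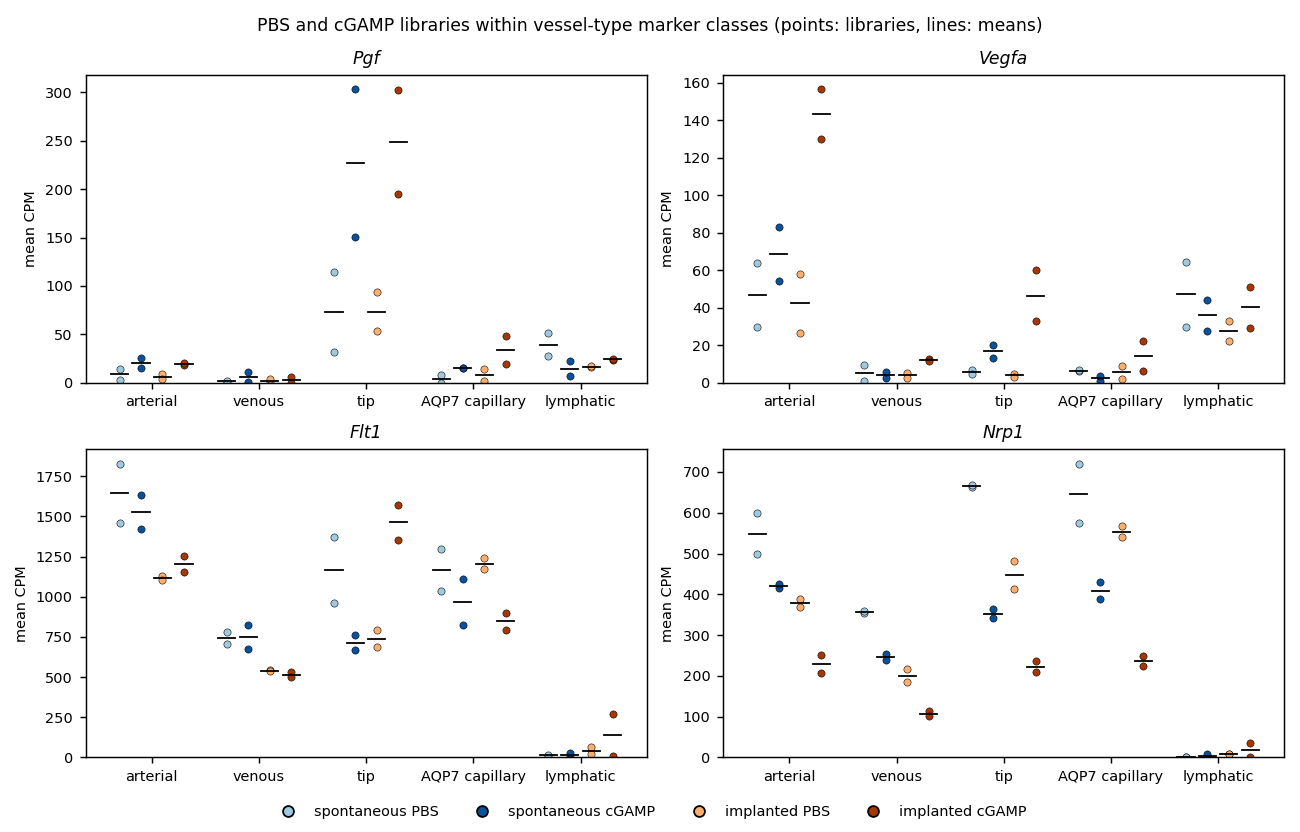
Mean CPM (y axis from 0) of Pgf, Vegfa, Flt1 and Nrp1 in 5 vessel classes, with a point for each library and a line for each group mean. In tip-like cells Flt1 is lower after cGAMP in spontaneous (763 and 667 against 964 and 1372 CPM) and higher in implanted tumours (1352 and 1573 against 791 and 686 CPM).

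Within classes, Nrp1 was lower in both cGAMP than in both PBS libraries in 4 of 5 classes in each model, all but the lymphatic-like class. In tip-like cells it was at 662 and 667 CPM in spontaneous PBS against 341 and 365 in spontaneous cGAMP, and at 413 and 480.5 in implanted PBS against 236 and 209 CPM in implanted cGAMP. Nrp2 was lower without overlap in 3 of 5 classes in spontaneous and 5 of 5 in implanted tumours. In arterial-like cells of spontaneous tumours Nrp2 was instead higher, at 77.2 and 75.5 against 35.7 and 71.4 CPM. Here and below, the share of all genes without overlap was not computed within classes. Over all Pecam1-positive cells it was 60.3% in spontaneous and 63.1% in implanted tumour ECs. The classes come from the same libraries, so counts of classes are not counts of independent observations.

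Kdr was lower after cGAMP without overlap in 5 of 5 classes of implanted tumours and in 2 of 5 classes of spontaneous tumours, the tip-like and lymphatic-like ones. Its lymphatic-like level was 662 and 728 CPM in spontaneous PBS and 344 and 418 in spontaneous cGAMP libraries. In arterial-like cells of implanted tumours Kdr was at 777 and 744 CPM after PBS and 394 and 566 CPM after cGAMP.

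Pgf in tip-like cells was at 114 and 31.9 CPM in spontaneous PBS, 303 and 150.2 in spontaneous cGAMP, 94.0 and 53.1 in implanted PBS, and 195 and 302 in implanted cGAMP libraries. The cGAMP libraries did not overlap with the PBS libraries of their model. Arterial-like cells showed the same direction at 15.0 to 25.7 CPM after cGAMP against 3.27 to 14.2 CPM after PBS, on 4 to 33 Pgf UMIs per library. Lymphatic-like cells of spontaneous tumours did not, at 6.76 and 22.2 CPM after cGAMP against 27.3 and 51.3 CPM after PBS, which rest on 1 and 10 against 8 and 22 Pgf UMIs.

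Vegfa in arterial-like cells of implanted tumours was at 26.7 and 58.0 CPM after PBS and 157 and 130 CPM after cGAMP. In tip-like cells it was at 4.76 and 3.22 against 32.7 and 59.9 CPM, the largest log2 difference of Vegfa between treatments in any class (3.20). Venous-like cells also did not overlap, and AQP7 capillary-like and lymphatic-like cells did. In spontaneous tumours only tip-like cells were higher without overlap, at 20.4 and 13.4 against 6.76 and 4.82 CPM. AQP7 capillary-like cells of spontaneous tumours held 1 to 3 Vegfa UMIs per library, and no direction was read from them.

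Flt1 in tip-like cells took opposite directions in the models. It was at 964 and 1372 CPM in spontaneous PBS, 763 and 667 in spontaneous cGAMP, 791 and 686 in implanted PBS, and 1352 and 1573 in implanted cGAMP libraries. The log2 differences were -0.69 and 0.98, and neither they nor their difference was tested. Esm1 and Apln, markers of the tip-like class, themselves changed after cGAMP in implanted tumour ECs (-1.02 and 0.60, adjusted p = 0.0398 and 0.0414). Neither was called in spontaneous tumour ECs. Cells classed as tip-like may therefore differ in kind between the groups, which was not tested. In AQP7 capillary-like cells of implanted tumours Flt1 was lower after cGAMP, at 794 and 899 against 1238 and 1172 CPM. Vegfc in arterial-like cells was lower after cGAMP without overlap in both models, at 299 and 342 against 383 and 383 CPM in spontaneous and 259.7 and 278 against 339 and 323 CPM in implanted tumours. Flt4 in lymphatic-like cells overlapped between treatments in both models.

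Other genes of the pathway were described from lists that do not include the 8 members. Of their 47 calls over the 5 tests, 12 held without each library in turn, and these were Plxnd1, Ptprb, Map2k1, Angpt2, Dusp5, Epas1 and Ets1 in implanted tumour ECs, Itgb3 in both models, and Sema3a, Itgb3 and Angpt2 between the models after cGAMP. The counts below stand against 12.7% of all genes called in spontaneous and 25.0% in implanted tumour ECs, and 7.83% after PBS and 13.8% after cGAMP between the models. Of the class 3 semaphorins and plexins, 8 of 12 were tested. In spontaneous tumour ECs 1 fell, and in implanted tumour ECs 2 rose and 1 fell, with median log2 fold changes of -0.23 and 0.15, against -0.10 for all genes. Plxnd1, a plexin of endothelial cells, fell by 0.44 in spontaneous (adjusted p = 0.00641) and by 0.65 in implanted tumour ECs (adjusted p = 0.000393). It was at 414 and 399 CPM in spontaneous PBS, 293 and 307 in spontaneous cGAMP, 335 and 305 in implanted PBS, and 210.5 and 196 in implanted cGAMP. Sema3a, a ligand of Nrp1, rose by 1.30 in implanted tumour ECs (adjusted p = 0.00543), and Sema3f, a ligand of Nrp2, by 0.43 (adjusted p = 0.0115). Between the models Plxnd1 was lower in implanted tumour ECs after PBS (1 of 8 called, log2 fold change -0.35, adjusted p = 0.0277). After cGAMP 4 were higher and 1 lower, led by Sema3a (2.11, adjusted p = 0.00198), Sema3d (1.23, adjusted p = 0.0263) and Plxnd1 (-0.56, adjusted p = 0.00328).

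Of the receptor partners and signalling genes, 19 of 20 were tested, with 2 higher and 1 lower in spontaneous and 2 higher and 4 lower in implanted tumour ECs (medians -0.13 and -0.18, against -0.10 for all genes). These shares lie near the 12.7% and 25.0% of all genes. Itgb3, the beta3 integrin, rose by 0.94 in spontaneous (adjusted p = 0.00327) and by 1.27 in implanted tumour ECs (adjusted p = 0.000331). Ptprb, the endothelial phosphatase VE-PTP, fell by 0.48 (adjusted p = 0.00888) and 0.73 (adjusted p = 0.0005). Map2k1, which encodes the kinase MEK1, rose by 0.51 (adjusted p = 0.027) and 0.68 (adjusted p = 0.00376). Between the models 1 was higher and 1 lower after PBS, and 1 higher and 3 lower after cGAMP. Itgb3 was higher in implanted tumour ECs under both injections (0.67, adjusted p = 0.0251, and 0.997, adjusted p = 0.00419). Epn2, an endocytic adaptor, was lower after PBS (-0.48, adjusted p = 0.0464), and Ptprb (-0.43, adjusted p = 0.0162) and Plcg1, a phospholipase downstream of VEGFR2 (-0.42, adjusted p = 0.029), were lower after cGAMP.

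Of 12 genes known to be induced by VEGF, 1 rose in spontaneous tumour ECs, and 5 rose and 1 fell in implanted tumour ECs (medians -0.09 and 0.26, against -0.10 for all genes). Rcan1, a calcineurin regulator, rose by 0.55 in spontaneous tumour ECs (adjusted p = 0.0284). In implanted tumour ECs Angpt2, the Tie2 ligand of sprouting vessels, rose by 2.55 (adjusted p = 2.7e-05), the phosphatase gene Dusp5 rose by 1.04 (adjusted p = 0.0062) and Esm1, a tip cell proteoglycan, fell by 1.02 (adjusted p = 0.0398). Leaving out replicate 1 of implanted cGAMP ended the Esm1 call (-0.69, adjusted p = 0.172). Angpt2 was at 63.8 and 42.0 CPM in implanted PBS and 295 and 321 in implanted cGAMP, against 70.8 and 89.5 in spontaneous PBS and 118 and 100.5 in spontaneous cGAMP libraries. Its responses differed between the models by 2.10 ± 0.26 (adjusted p = 0.021), the only call of the 12 in that test, which was lost without spontaneous PBS replicate 2 or either spontaneous cGAMP library (adjusted p up to 0.154). After PBS, Rcan1 alone was higher in implanted tumour ECs (0.90, adjusted p = 0.00455). After cGAMP 5 were higher and 1 lower, led by Angpt2 (1.49, adjusted p = 0.00206), the transcription factor Egr3 (1.13, adjusted p = 0.0296) and the tip cell ligand Apln (0.97, adjusted p = 0.011). Esm1 and Apln are also markers of the tip-like class.

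Of 12 endothelial transcription factors, none was called in spontaneous tumour ECs (2 had an unadjusted p under 0.05 in limma), and 3 fell in implanted tumour ECs (medians -0.24 and -0.18), where the share called equals the 25.0% of all genes. Epas1 (HIF2A) fell by 0.79 (adjusted p = 0.001), Ets1 by 0.44 (adjusted p = 0.00259) and Sox18 by 0.38 (adjusted p = 0.0411). Prox1 is the master regulator of lymphatic identity and a marker of the lymphatic-like class. It was higher in implanted tumour ECs under either injection (1.14 with an adjusted p of 0.0493 for PBS, 1.27 with an adjusted p of 0.0244 for cGAMP). Neither call held without each library in turn. The lymphatic-like share was 12.3% and 9.77% in implanted against 4.33% and 3.32% in spontaneous cGAMP libraries. After PBS the shares overlapped, at 5.6% and 3.83% in implanted and 2.69% and 4.99% in spontaneous libraries. After cGAMP Ets1 (-0.45, adjusted p = 0.00591) and Sox18 (-0.41, adjusted p = 0.0467) were lower in implanted tumour ECs. Of the remaining VEGF ligands Vegfb was the only one tested and was not called in any comparison, and Vegfd reached at most 2.23 CPM.

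Across the 8 libraries, the genes whose log2 levels were most like each member were taken by Pearson's r, as a description. The points share their libraries, depth and treatment contrast, and no test was made. Pgf was nearest to Tmem184b (r = 0.98) and Atf5 (r = 0.97), Vegfa to Tfpi2 (r = 0.98) and Eif5 (r = 0.97), and Vegfc to Mfsd11 and Atp2a3 (both r = 0.98). Flt1 was nearest to Sec62 and Ptbp3 (both r = 0.96), Kdr to Fabp4 and Dram2 (both r = 0.98), and Flt4 to the Notch ligand gene Dll4 and to Atp6v0a2 (both r = 0.96). Nrp1 was nearest to Mpdz and Rab4a, and Nrp2 to Prkd3 and Slc39a8 (all r = 0.99).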

How the data were processed

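The authors aligned the reads of the 8 libraries to mm10 with Cell Ranger 3.0.0 and used Seurat 3.1.1 (both per the processing notes). Per their methods, they dropped cells under 500 genes or above 10% mitochondrial UMIs. The deposited values are natural log values per cell, ln(1 + UMIs × 10000 / total UMIs of the cell). UMIs were recovered as whole numbers (100% within 0.01). All numeric columns belonged to a library (0 unused). How the deposited cells were selected from the sequenced ones is not settled, doublets were not called, and class names are rebuilt from markers.

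The level of a gene was its mean CPM over Pecam1-positive cells. The log2 of this mean plus 1 CPM was tested with limma 3.58.1 (R 4.3.3, eBayes with trend) in 1 fit of all 8 libraries, for the 10424 genes that reached 5 CPM in 2 or more libraries, adjusted by Benjamini-Hochberg. P values rest on 1 spread per gene, pooled over the replicates of all 4 groups and moderated by a trend over the tested genes. They do not measure the spread of the compared groups alone. Leaving out a library of another group can therefore change a call at the same fold change. Summed UMIs of the replicates of a group differed by more than independent draws of UMIs would (chi-square per degree of freedom 4.07 to 11.4). UMIs come in cells of different types, so this does not tell a difference of mice from the sampling of cells. The code of the fit was also run on simulated libraries in which all genes shared 1 spread beside counting noise. The spread of real genes differs, so that run does not bear on how certain the calls of the 8 members are. All 8 members were named, then from each pathway list up to 3 called genes with the largest change per comparison, and for each member the 2 genes most alike. The members and lists were chosen with earlier results of these data known. Alternatives changed the cells, weighting, scaling, pseudocount, filter, prior variance and block, and left out each library.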

Additional observations from a re-analysis of the deposited data

Results flagged for a closer look

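The response of Angpt2 to cGAMP was larger in implanted than in spontaneous tumour ECs, by 2.10 on the log2 scale in the test of the difference itself (limma, adjusted p = 0.021). This call was lost without spontaneous PBS replicate 2 or either spontaneous cGAMP library. It was also lost without the filter on low values and with eBayes without trend.

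The 8 genes were searched in 5 vessel classes. In 4 cases all cGAMP libraries of a class lay on one side of the PBS libraries in spontaneous tumours and on the other in implanted tumours. The share of such cases over all genes was not computed. Over all Pecam1-positive cells, 60.3% of all genes did not overlap between treatments in spontaneous and 63.1% in implanted tumour ECs. The log2 difference was -0.69 in spontaneous and 0.98 in implanted tumours for Flt1 in tip-like cells, 0.59 and -0.24 for Nrp2 in arterial-like cells, -0.30 and 1.17 for Flt4 in venous-like cells, and -1.52 and 0.49 for Pgf in lymphatic-like cells. These differences between the models were not tested. Esm1 and Apln, markers of the tip-like class, changed after cGAMP in implanted tumour ECs, so cells classed as tip-like may differ in kind between the groups. Pgf in lymphatic-like cells of spontaneous tumours rests on 8 and 22 UMIs after PBS and 1 and 10 UMIs after cGAMP, so that 1 library holds a single molecule. Flt4 in venous-like cells of implanted tumours was at 11.3 and 11.4 CPM after PBS and 23.2 and 30.8 CPM after cGAMP. For Nrp2 in arterial-like cells the nearest libraries were close. They were at 75.5 CPM after cGAMP and 71.4 CPM after PBS in spontaneous tumours, and at 33.8 and 34.6 CPM in implanted tumours.

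Cells without a Pecam1 UMI entered a test only in the alternative over all deposited cells. In them, 3 of the 8 genes were higher in both implanted cGAMP than in both implanted PBS libraries, and the other 5 were not. In Pecam1-positive cells 63.1% of all genes did not overlap between these groups. That share was not computed for cells without a Pecam1 UMI. Vegfa was at 43.4 and 77.5 CPM in these cells against 3.27 CPM and no UMI after PBS. Flt1 was at 596 and 452 CPM against 245 and 216 CPM, and Nrp2 at 142 and 58.7 CPM against 53.6 and 53.7 CPM. Vegfc was lower in them, at 32.2 and 12.9 CPM against 141 and 127 CPM. The cells numbered 496 and 50 in the implanted cGAMP libraries and 99 and 93 in the implanted PBS libraries. Their median was 1105 and 1551 UMIs in implanted cGAMP, and 1381 and 1490 UMIs in implanted PBS libraries. In implanted cGAMP replicate 2, Vegfa was found in 12% and Nrp2 in 10% of the 50 cells.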

How the results depend on the processing

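Each group held 2 libraries, so that most calls rest on single libraries. Of the member log2 fold changes, 467 kept their direction and side of the threshold under the settings other than leaving out a library, 27 lost and 8 gained a call, and 18 turned. Without 1 library these numbers were 261, 31, 9 and 19. The causes were not tested.

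Of the 4 members called in spontaneous tumour ECs, 2 were called without cells with markers of other types, 1 without a filter on low values and 2 with eBayes without trend. Of the 7 in implanted tumour ECs, 4 were called without trend. Between the models after PBS (2 called) the count was 4 with fixed class weights, 1 without filter and 1 without trend, and after cGAMP (3 called) it was 5 with fixed class weights. Leaving out each library gave 0 to 4 members in spontaneous and 3 to 7 in implanted tumour ECs, 1 to 4 between the models after PBS and 1 to 4 after cGAMP, and 0 in each case for the difference of responses.

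Of the pathway genes, 5 were called in spontaneous tumour ECs, and 3 without cells with markers of other types, 16 with summed UMIs, 8 with fixed class weights, 3 without filter and 2 without trend. The difference of responses (1 called) gave 2 with summed UMIs and 0 without filter or trend. After PBS (5 called) the counts were 3 over all deposited cells, 3 without cells with other markers, 1 without filter and 1 without trend, and after cGAMP (18 called) 6 without filter and 7 without trend. Leaving out each library gave 1 to 8 in spontaneous, 9 to 17 in implanted, 0 to 3 for the difference, 1 to 7 after PBS and 3 to 17 after cGAMP.

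Fold changes that turned were not called in either setting, except for Flt4. In implanted tumour ECs Flt4 turned to -0.10 with fixed class weights, and between the models after cGAMP to -0.38 with these and -0.16 without cells with other markers, where Flt1 turned to -0.030. For the difference of responses Vegfc turned to 0.047 with at least 2 Pecam1 UMIs per cell, 0.081 in cells with at least 2000 UMIs and 0.15 with summed UMIs, Pgf to -0.091 with summed UMIs and Nrp2 to -0.035 with fixed class weights. After PBS Vegfa turned to 0.042 in cells with at least 2000 UMIs and 0.035 with summed UMIs, Vegfc to -0.048 with at least 2 Pecam1 UMIs, -0.014 with at least 2000 UMIs and -0.091 with fixed class weights, and Pgf to -0.011 with at least 2 Pecam1 UMIs and -0.19 without cells with other markers. After cGAMP Vegfc turned to 0.067 with at least 2000 UMIs and 0.19 with summed UMIs. Without 1 library the ranges that crossed 0 were -0.024 to 0.61 for Vegfa and -0.32 to 0.021 for Kdr in spontaneous tumour ECs. For the difference of responses they were -0.012 to 0.21 for Nrp2, -0.19 to 0.76 for Pgf and -0.34 to 0.050 for Vegfc. After PBS they were -0.33 to 0.012 for Kdr, -0.18 to 0.38 for Pgf, -0.63 to 0.42 for Vegfa and -0.15 to 0.24 for Vegfc. After cGAMP they were -0.16 to 0.23 for Flt1, -0.091 to 0.86 for Pgf and -0.30 to 0.092 for Vegfc.

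The groups share replicate numbers that the labels tie to nothing, and deviations of libraries of the same number correlated at -0.216 to 0.126 over 6 pairs of groups, so the numbers were not taken as a pairing. With the replicate block, 4, 6, 0, 3 and 4 members were called in spontaneous and implanted tumour ECs, in the difference of responses, and between the models after PBS and cGAMP, and 6, 17, 1, 5 and 19 pathway genes. The member calls that changed were Flt4 in implanted tumour ECs (adjusted p = 0.0537), Flt1 after PBS (adjusted p = 0.0486) and Kdr after cGAMP (adjusted p = 0.0479).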
